A study of Mus musculus with 14 samples.

Results

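The transcription factor gene Sox4 and 6 related genes of the Sox family, Sox11, Sox12, Sox9, Sox7, Sox17 and Sox18, were examined in CT26 tumors treated with control IgG or anti-PD-1. These 7 of the 53801 genes in the files were chosen by name after the group differences measured in these same tumors were known. Their levels and their differences between groups are therefore given as descriptions. Where a member is said to be called, this gives its place in a fit across all genes and is no independent test. Further lists of partner, target and marker genes were read from the same fit. Of the 7 genes, 6 passed the filter on low counts, and Sox11 did not.

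CT26 is a line derived from a colon carcinoma of a Balb/c mouse. Barcoded CT26 cells were transplanted under the skin of both flanks of female Balb/c mice of 6 to 8 weeks, and control IgG (clone 2A3) or anti-PD-1 was given from day 7 at 200 μg a dose, every 3 days for 5 doses, with harvest 3 days after the last dose. The control IgG group held 5 tumors from 4 mice (14L, 14R, 16R, 17R and 20R). The anti-PD-1 tumors were divided by the study into 5 responders from 4 mice (24L, 26R, 30L, 30R and 35L) and 4 non-responders from 3 mice (29L, 32R, 33L and 33R), by their final size relative to control tumors. All 14 tumors carried the same line and the same host strain, and the groups differed in the antibody and, among anti-PD-1 tumors, in outcome. Response was thus an outcome and was not assigned. Both flanks of mouse 14, mouse 30 and mouse 33 were sequenced, so that p-values over tumors count some tumors of 1 mouse as separate.

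Poly(A) RNA of whole tumors was sequenced. Fewer cells of a type and less RNA per cell cannot be told apart in such samples. The totals of the expected counts, which are RSEM's estimates of the fragments that came from each gene, ranged from 33237744 to 48481461 per tumor. Levels between tumors are given as CPM, counts scaled to a common library total with edgeR's TMM factors. Levels of Sox genes are set against each other only as TPM, the authors' share of each gene among all transcripts, which divides by gene length. Levels of marker genes are given in CPM unless stated, which does not divide by length. A gene was called different where edgeR's quasi-likelihood test, fitted over 16287 genes in all 14 tumors, gave an adjusted p under 0.05. Tumor 33R stood apart, with the lowest TMM factor (0.9175, against 0.966 to 1.066 in the others) and the highest mean fragment length (287.8 bases). Fragment length was 269.5 to 277 bases in responders, 277.5 to 287.8 in non-responders and 268.7 to 277.7 in control IgG tumors. Its part in the results below was not tested. The length offset given in the closing section uses the transcript length of each gene and not the fragment length. Of 11 colon epithelial genes checked against the label, 8 reached 1 CPM in some tumor. Krt20, a keratin of the intestinal epithelium, was at 202 to 489 CPM, whereas the intestinal regulator Cdx2 did not pass 0.68 CPM and Vil1 and Muc2 did not pass 0.174 and 0.106. In TPM the medians over 14 tumors were 223 for Krt20, 0.28 for Cdx2, 0.065 for Vil1 and 0.005 for Muc2.

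Sox proteins bind DNA through a high mobility group (HMG) box and are sorted into groups by its similarity. Sox4, Sox11 and Sox12 form the SoxC group, which acts in progenitor cells, and Sox4 is also known as a target of TGF-β signaling and is often highly expressed in carcinomas. Sox9 is a SoxE factor of cartilage, of the intestinal crypt and of other epithelial progenitors. Sox7, Sox17 and Sox18 form the SoxF group, known for its part in endothelial cells, in blood and lymphatic vessels.

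The HMG box coding windows of 4 members are shown because they give the relation of the genes and the stretch in which their reads are most alike. Each is 237 coding bases, read 5′ to 3′ on the coding strand from the GENCODE M21 transcripts (GRCm38, the same assembly as mm10). Capitals mark the bases that differ from Sox4.
Sox4: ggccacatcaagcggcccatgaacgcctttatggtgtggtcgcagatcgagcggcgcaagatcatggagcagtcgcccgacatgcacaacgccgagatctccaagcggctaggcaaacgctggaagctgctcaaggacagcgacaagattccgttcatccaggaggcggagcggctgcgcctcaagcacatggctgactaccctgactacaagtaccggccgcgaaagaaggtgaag
Sox11: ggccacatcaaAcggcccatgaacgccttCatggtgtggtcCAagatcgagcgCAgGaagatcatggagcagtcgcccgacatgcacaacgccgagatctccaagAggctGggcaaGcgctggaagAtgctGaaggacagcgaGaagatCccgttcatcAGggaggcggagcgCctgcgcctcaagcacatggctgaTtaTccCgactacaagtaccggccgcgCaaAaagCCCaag
Sox9: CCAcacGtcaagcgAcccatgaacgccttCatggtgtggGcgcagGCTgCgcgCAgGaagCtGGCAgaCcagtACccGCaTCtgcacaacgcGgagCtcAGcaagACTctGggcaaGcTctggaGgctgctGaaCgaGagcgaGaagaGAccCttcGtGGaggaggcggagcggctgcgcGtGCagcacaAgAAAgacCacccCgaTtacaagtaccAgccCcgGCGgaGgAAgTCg
Sox18: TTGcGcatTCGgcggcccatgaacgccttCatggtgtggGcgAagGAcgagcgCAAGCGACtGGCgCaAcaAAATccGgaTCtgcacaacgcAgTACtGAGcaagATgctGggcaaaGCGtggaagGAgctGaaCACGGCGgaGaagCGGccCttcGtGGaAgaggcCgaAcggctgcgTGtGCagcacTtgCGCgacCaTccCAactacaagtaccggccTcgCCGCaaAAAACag
The Sox4 window lies in its only exon at chr13:28952617-28952853 on the minus strand, and that of Sox11 in its only exon at chr12:27342034-27342270, also minus. The Sox9 window is split by an intron, at chr11:112782891-112783015 and chr11:112783809-112783920 on the plus strand. The Sox18 window is split in the same way, at chr2:181670872-181670996 and chr2:181671182-181671293 on the minus strand.

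Sox11 matched Sox4 at 212 of the 237 bases (89.5%), and Sox12 at 202 (85.2%). The other members matched Sox4 less, at 71.7% for Sox9, 65.8% for Sox7, 64.6% for Sox17 and 62.9% for Sox18. Among the SoxF genes, Sox17 and Sox18 matched each other at 82.3% of the bases. The longest unbroken run that the Sox4 transcript shared with another member was 48 bases, with Sox11, and 33 bases with Sox12. These runs were short beside the mean fragment length of every library, which was 268.7 bases or more. RSEM divides a fragment that matches several genes among them, and how many fragments it divided between these genes was not tested.

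Sox4 (ENSMUSG00000076431; mm10 chr13:28948919-28953713, minus strand) was the most abundant SoxC gene in every tumor. Its CPM was 57.4, 43.2, 58.4, 64.4 and 48.2 in control IgG tumors 14L, 14R, 16R, 17R and 20R. In non-responders 29L, 32R, 33L and 33R it was 55.0, 50.4, 51.6 and 42.4. In responders 24L, 26R, 30L, 30R and 35L it was 26.4, 24.8, 24.8, 24.7 and 30.5. Every responder was below every tumor of the other 2 groups, whereas control IgG tumors and non-responders overlapped.

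The mean Sox4 level was 26.2 ± 2.51 CPM in responders (SD, n = 5), 49.9 ± 5.37 in non-responders (n = 4) and 54.3 ± 8.50 in control IgG tumors (n = 5). The fitted log2 fold change was -0.93 ± 0.12 (SE) between responders and non-responders, a level 1.9-fold lower, and -1.05 ± 0.11 between responders and control IgG tumors, 2.07-fold lower. Between non-responders and control IgG tumors it was -0.12 ± 0.12, with a 95% interval of -0.35 to 0.11. The responder and non-responder comparisons share the control IgG tumors, and the first pair of comparisons shares the responders. In TPM the separation was smaller. Responders were at 6.70 to 8.41 TPM, control IgG tumors at 10.19 to 16.66 and non-responders at 7.98 to 13.99, so that non-responder 33R, at 7.98, fell among the responders on this scale. Without 33R the log2 fold change in the count fit was -0.98 between responders and non-responders. The TPM scale itself was shifted, with a median log2 fold change over all tested genes of 0.20 between responders and non-responders, against 0.01 in the count fit.

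**Figure D1:**
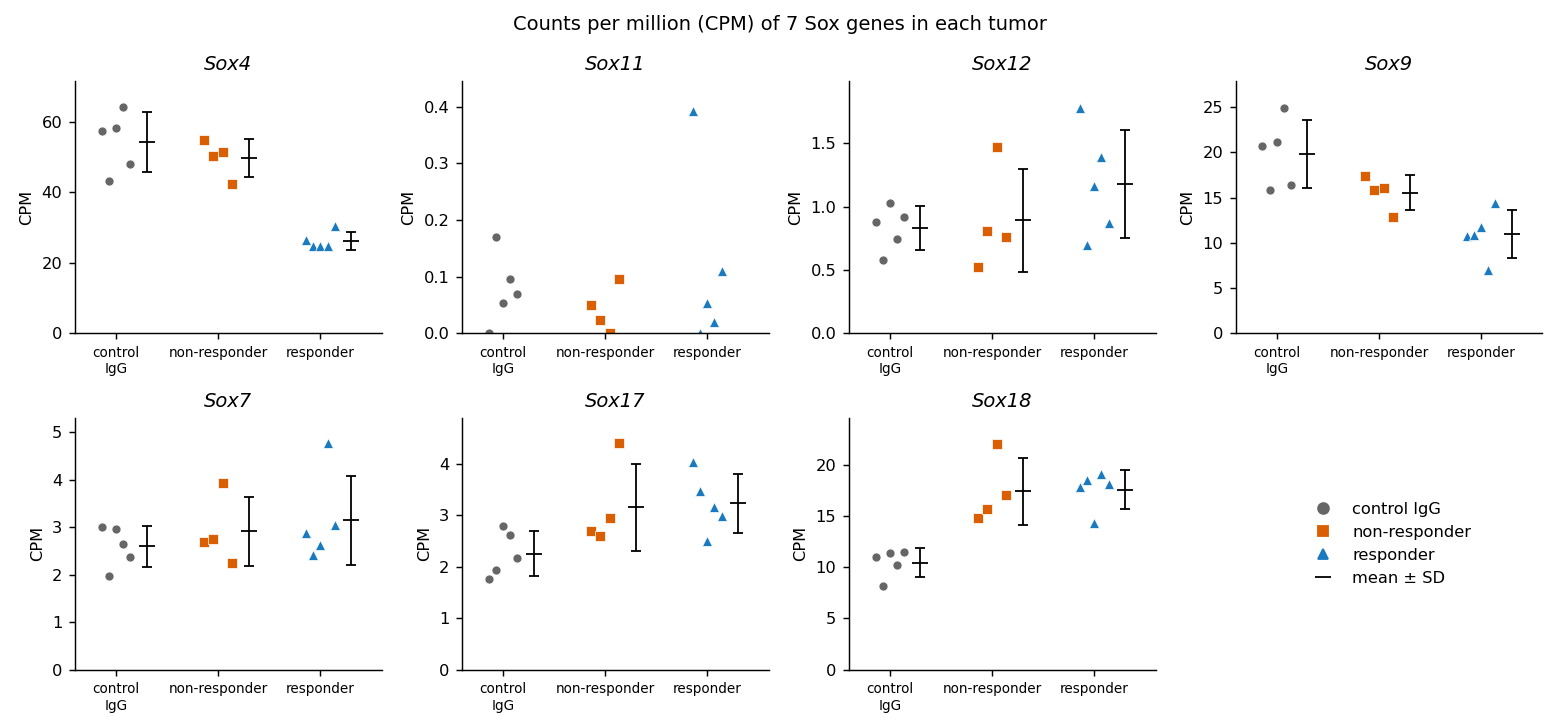
Levels of the 7 Sox genes in CPM (linear axes from 0, 1 panel a gene) in each of the 14 tumors by group; symbols are tumors, and black bars are the mean ± SD, not drawn for Sox11. The Sox4 values of the 5 responders, 24.7 to 30.5, lie below all others, and the Sox18 values of the 5 control IgG tumors, 8.14 to 11.5, lie below those of all 9 anti-PD-1 tumors.

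The other SoxC genes were scarce. Sox11 (ENSMUSG00000063632; chr12:27334264-27342574, minus) had 0 to 17 counts and was at 0 in 3 of 14 tumors. Its CPM was 0 to 0.171 in control IgG tumors, 0 to 0.0950 in non-responders and 0 to 0.393 in responders, the last from 17 counts in 24L. A count of 0 allows up to 3 counts, or 9.03e-06% of the shallowest library, and this limit covers counting error only. Sox11 was at or below 3 counts in 10 of 14 tumors, and no difference between groups was detectable at this depth.

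Sox12 (ENSMUSG00000051817; chr2:152393611-152398063, minus), a weaker activator than Sox4 and Sox11, had 21 to 77 counts per tumor. Its mean CPM was 0.829 ± 0.172 in control IgG tumors (SD, n = 5), 0.892 ± 0.407 in non-responders (n = 4) and 1.18 ± 0.428 in responders (n = 5). The groups overlapped in all 3 comparisons. The log2 fold change between responders and non-responders was 0.41 ± 0.33 (SE), and its 95% interval, -0.23 to 1.05, spans both no difference and a doubling of the level. Sox4 was thus the SoxC gene whose responder values stood apart, and the level of Sox12 in TPM was 0.14 to 0.55 against 6.70 to 16.66 for Sox4.

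Sox9 (ENSMUSG00000000567; chr11:112782224-112787760, plus strand) had its lowest mean in responders and its highest in control IgG tumors. Its CPM was 20.7, 15.9, 21.1, 24.9 and 16.3 in control IgG tumors, in the tumor order used for Sox4. It was 17.4, 15.9, 16.0 and 12.8 in non-responders and 10.7, 10.8, 11.7, 6.97 and 14.4 in responders. Responders lay below all control IgG tumors and overlapped the non-responders, of which 33R, at 12.8, was below responder 35L, at 14.4.

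The mean Sox9 level was 10.9 ± 2.67 CPM in responders (SD, n = 5), 15.5 ± 1.93 in non-responders (n = 4) and 19.8 ± 3.75 in control IgG tumors (n = 5). The log2 fold change was -0.86 ± 0.17 (SE) between responders and control IgG tumors and -0.51 ± 0.18 between responders and non-responders. Between non-responders and control IgG tumors it was -0.35 ± 0.18, with a 95% interval of -0.71 to 0.01. Sox9 was thus called against control IgG tumors only. It was also called against non-responders in 4 of 25 alternatives, with DESeq2, with a random effect for the mouse, with a length offset and without responder 35L.

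Sox18 (ENSMUSG00000046470; chr2:181669836-181671640, minus), a regulator of vessel and lymphatic development, was higher in both anti-PD-1 groups than in control IgG tumors. Its CPM was 11.0, 8.14, 11.4, 10.2 and 11.5 in control IgG tumors. It was 14.8, 15.7, 22.1 and 17.1 in non-responders and 17.9, 18.5, 14.3, 19.1 and 18.2 in responders. All 9 anti-PD-1 tumors were above all 5 control IgG tumors, and the 2 anti-PD-1 groups overlapped.

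The mean Sox18 level was 10.5 ± 1.40 CPM in control IgG tumors (SD, n = 5), 17.4 ± 3.24 in non-responders (n = 4) and 17.6 ± 1.90 in responders (n = 5). The log2 fold change against control IgG tumors was 0.75 ± 0.13 (SE) in responders and 0.74 ± 0.13 in non-responders, 2 comparisons that share the control tumors. Sox18 was called in the first and not in the second, in which edgeR called 0% of all genes. Between responders and non-responders the log2 fold change of Sox18 was 0.01 ± 0.13, and the 95% interval of this difference was -0.25 to 0.28. On the TPM scale the responder minus non-responder value was 0.26, beside the shift of 0.20 of all genes on that scale.

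Sox17 (ENSMUSG00000025902; chr1:4490931-4497354, minus), a factor of endoderm and of arterial endothelium, had lower counts and a similar order of means. Its CPM was 2.26 ± 0.439 in control IgG tumors (SD, n = 5), 3.16 ± 0.843 in non-responders (n = 4) and 3.23 ± 0.572 in responders (n = 5). The lowest responder, 30L at 2.51, was below the control IgG tumors 16R at 2.79 and 17R at 2.63, so the groups overlapped. The log2 fold change against control IgG tumors was 0.52 ± 0.19 (SE) in responders and 0.48 ± 0.20 in non-responders, and neither was called. Sox17 was called between responders and control IgG tumors in 3 of 25 alternatives, with a random effect for the mouse, on the TPM scale and without non-responder 33R.

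Sox7 (ENSMUSG00000063060; chr14:63943673-63950732, plus strand), the third SoxF gene, was at 1.96 to 3.01 CPM in control IgG tumors (median 2.65), 2.25 to 3.94 in non-responders (median 2.72) and 2.42 to 4.77 in responders (median 2.87). The groups overlapped throughout. The largest of the 3 log2 fold changes was 0.28 ± 0.21 (SE), between responders and control IgG tumors, and it was 0.08 without responder 30R, which had the highest value.

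**Figure D2:**
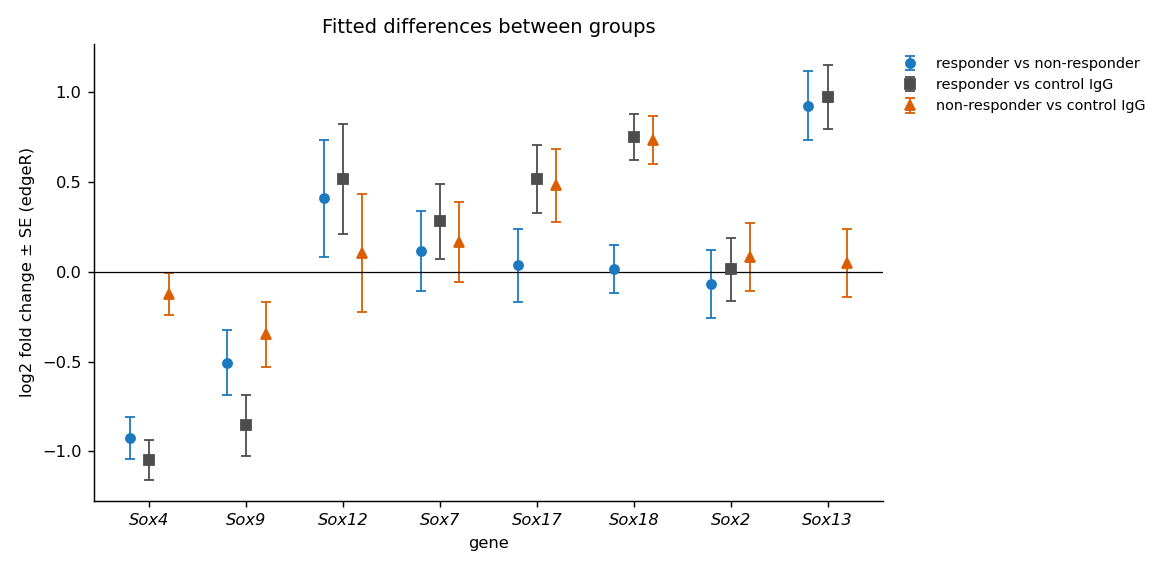
Log2 fold change ± SE from edgeR (y axis) of the 6 tested members and of Sox2 and Sox13 (x axis) in the 3 comparisons between groups. Sox4 lies near -1 in both comparisons of responders, Sox18 at 0.75 and 0.74 in both comparisons with control IgG, and Sox13 at 0.93 and 0.98 in both comparisons of responders.

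Counted over the 6 members tested, 1 was called between responders and non-responders, Sox4, which was lower in responders. Of all 16287 genes, 5.08% were called higher and 4.82% lower in that comparison, 1612 genes in all, and the number was 569 without 24L, 615 without 32R, 686 without 30R and 793 without 33R. Sox4 was also the single member of 6 without overlap between these groups, against 12.8% of all genes. Between responders and control IgG tumors 3 of 6 were called, Sox4 and Sox9 lower and Sox18 higher, where 7.88% of all genes were called higher and 5.3% lower. These 2147 genes became 1190 without 20R, 1192 without 24L, 1387 without 30R and 3385 without 33R. The same 3 members had no overlap, against 15.1% of all genes. Between non-responders and control IgG tumors edgeR called 0 of 6 members and 0% of all genes. At an unadjusted p under 0.05 the counts were 2 of 6 members and 758 of 16287 genes. DESeq2 called 18 genes there, among them Sox18, and limma-voom called 0. Sox18 was the member without overlap in that comparison, against 1.25% of all genes. Because the members were picked with these comparisons known, nothing is read from their shares.

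The order of the members in TPM changed with the group. In all 5 control IgG tumors and in non-responder 29L it was Sox4, Sox18, Sox9, Sox17, Sox7, Sox12 and Sox11, from high to low. In the other 3 non-responders and all 5 responders Sox18 was first and Sox4 second. The ratio of Sox4 to Sox18 within a tumor, which does not depend on library scaling, was 1.25 to 1.89 in control IgG tumors. It was 0.696 to 1.11 in non-responders and 0.385 to 0.518 in responders, with no overlap between any 2 groups. Both genes were chosen with their group differences known, and against control IgG tumors Sox4 was lower and Sox18 higher in responders. The separation of their ratio restates these values and is no further result. How many other gene pairs separate the groups in this way was not computed. Sox9 and Sox17 were neighbors in the order and did not keep it, since Sox17 was above Sox9 in responders 24L, 26R and 30R and in non-responder 33R and below it in the other 10 tumors. The lower end, Sox7, Sox12 and Sox11, had the same order in every tumor.

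**Figure D3:**
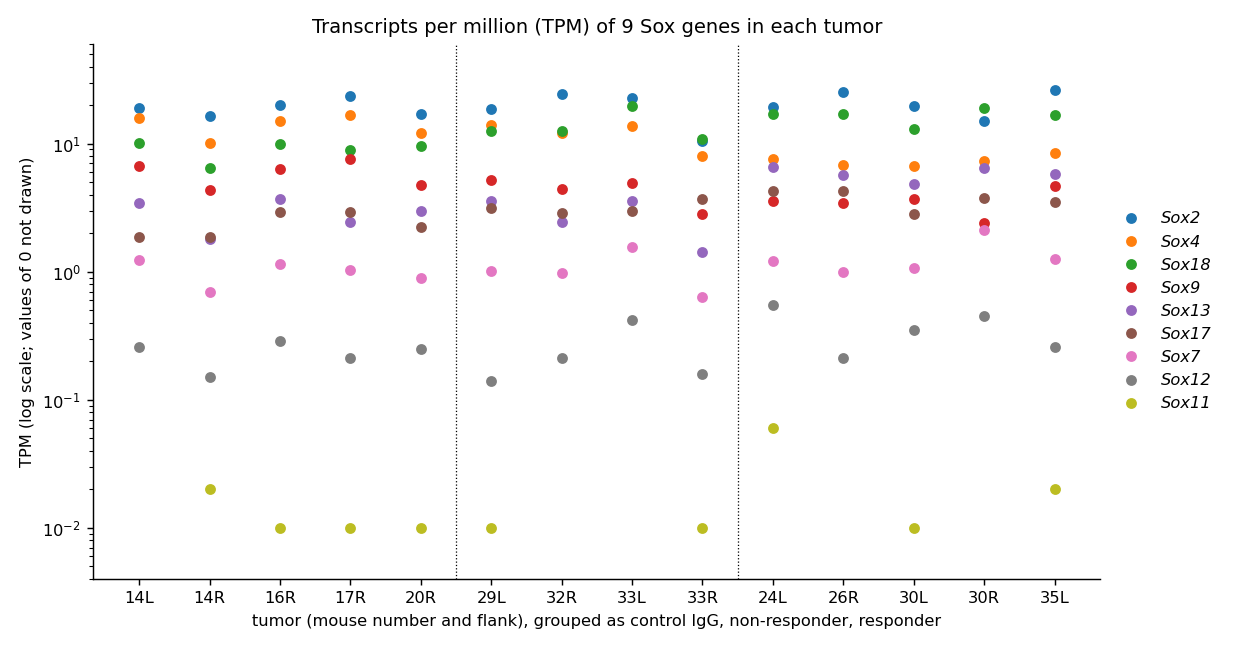
Levels of 9 Sox genes in TPM (log axis; values of 0 not drawn) in each of the 14 tumors, arranged by group with dotted lines between groups. Sox4 lies above Sox18 in all 5 control IgG tumors and below it in all 5 responders, and Sox2 is first in 12 of 14 tumors.

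The remaining 13 Sox genes give the setting of the members. Only 5 of them passed the filter, namely Sox2, Sox5, Sox6, Sox13 and Sox21, and Sox1, Sox3, Sox14 and Sry were at 0 in every tumor. Sox2, a pluripotency and progenitor factor of the SoxB1 group, was at 10.49 to 26.08 TPM and thus above Sox4 in all 14 tumors. Its CPM was 26.9 to 35.7 in control IgG tumors (median 27.7), 21.9 to 40.7 in non-responders and 20.0 to 37.4 in responders. The log2 fold change of Sox2 between responders and non-responders was -0.07 ± 0.19 (SE; edgeR adjusted p = 0.85).

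Sox13, a SoxD factor known in γδ T cells and in other lineages, rose in responders. Its CPM was 5.74, 4.10, 7.54, 6.08 and 6.24 in control IgG tumors, and 7.80, 5.54, 6.97 and 4.25 in non-responders. In responders it was 13.6, 11.6, 9.43, 11.3 and 12.5, above every other tumor. The log2 fold change was 0.93 ± 0.19 (SE) against non-responders (edgeR adjusted p = 0.0137) and 0.98 ± 0.18 against control IgG tumors (edgeR adjusted p = 0.00344). Sox13 was called in both comparisons in all 25 alternatives. T cell markers moved in the same direction. The summed CPM of 6 of them was 32.9 to 65.3 in responders, 18.6 to 23.2 in non-responders and 15.0 to 36.0 in control IgG tumors, and their part in the Sox13 result was not tested.

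Across tumors, Sox4 and Sox9 went together. With the group means taken out, Pearson's r of their log2 CPM over 14 tumors was 0.795, and it was 0.89 with the group means left in. These values are descriptions, and the points share their library and its TMM factor. The r of Sox4 with the SoxF genes within groups was -0.03 with Sox17, 0.27 with Sox18 and 0.42 with Sox7. That of Sox4 with Sox13 was 0.72 within groups and -0.71 over all tumors. These 2 genes thus varied together within a group and oppositely between groups. Control IgG tumor 14R and non-responder 33R each had the lowest Sox4, Sox9 and Sox13 values of their group. The part of these 2 tumors in the r values was not tested. Among the SoxF genes, Sox7 and Sox18 had an r of 0.63 within groups, whereas Sox17 had 0.35 with Sox18 and -0.10 with Sox7.

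**Figure D4:**
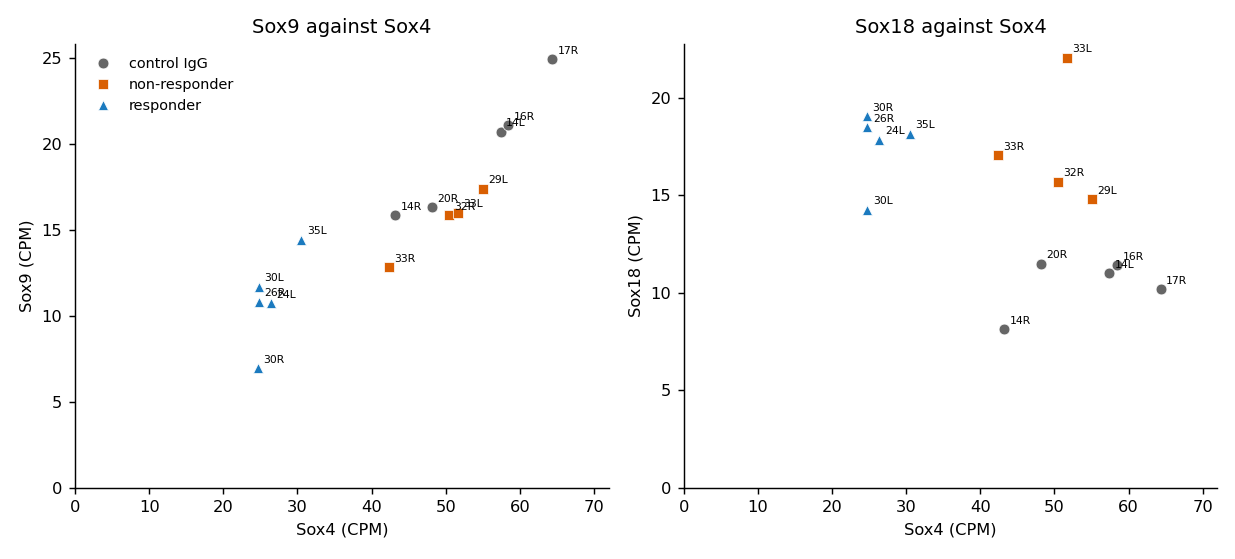
Sox9 (left) and Sox18 (right) against Sox4, all in CPM, with 1 labeled point a tumor. Sox9 follows Sox4 over the 14 tumors, while the Sox18 values of control IgG tumors lie below those of both anti-PD-1 groups.

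Over 12186 genes, those most like Sox4 with group means taken out were Csad (r = 0.921), Itga10 (0.915), Calcoco1 (0.9), Zfp316 (0.87) and Sntb2 (0.86). Those least like it were Riox1 (r = -0.919), Smco4 (-0.873), Ugt1a7c (-0.868), Folr2 (-0.865) and Fam72a (-0.864). With the group means left in, the genes most like Sox4 were Nipal1 (r = 0.935), Il1rap (0.919), Itgb5 (0.917), Pak3 (0.917) and Ptprn (0.911). For Sox9, BC005561 (r = 0.872), Slc4a7 (0.852) and Ptgs2 (0.85) led within groups, followed by Avl9 (0.842) and 6820431F20Rik (0.836). For Sox18 they were Arhgef15 (r = 0.839), Zfp41, Faap100, Zbtb46 and Snn, the last at 0.818. For Sox7 they included St14 (r = 0.935), Jup, Ppl and Cat, the last at 0.888. For Sox17 they were Znhit2 (r = 0.878), Snhg5, Dnase2a, Lyl1 and Dcxr (0.837), and for Sox12 they were Cd276 (r = 0.92), Sh2d3c, Ptk7, Tcaf1 and Plpp3 (0.893). Each r is over 14 tumors and is a description.

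The flank tumors of 1 mouse gave the spread within a host. In mouse 30, a responder, Sox4 was at 24.8 CPM on the left and 24.7 on the right, a log2 difference of 0.01, where the median absolute difference over all tested genes was 0.18. Sox9 in that mouse was at 11.7 and 6.97 (0.74), and Sox7 at 2.62 and 4.77 (-0.85). In mouse 14, control IgG, Sox4 was at 57.4 and 43.2 CPM (0.41, with a median over genes of 0.26). In mouse 33, a non-responder, it was at 51.6 and 42.4 (0.29, with a median of 0.42). Sox18 differed between flanks by 0.44 in mouse 14, -0.42 in mouse 30 and 0.37 in mouse 33. In these 3 mice the flanks differed by less in Sox4 than the responder and control IgG means did.

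Lists of other Sox genes, of Wnt and TCF genes, of TGF-β and transition genes, of known Sox targets and of endothelial genes were read from the same fit. Of their 81 genes, 62 were tested. Between responders and non-responders 5 rose (Eng, Sox13, Tcf7, Tgfb3 and Vcam1) and 2 fell (Snai1 and Snai2). Of all 16287 genes, 5.08% were called higher and 4.82% lower there. The median log2 fold change of the 62 genes was 0.16, beside 0.01 over all genes. Between responders and control IgG tumors 9 rose and 4 fell, with a median of 0.17 beside -0.01 over all genes. Of all genes, 7.88% were called higher and 5.3% lower in this comparison. The same shares of all genes stand beside the counts of the single lists below. Between non-responders and control IgG tumors edgeR called 0 of 62, 3 had an unadjusted p under 0.05, and DESeq2 and limma-voom called 0.

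Of 5 tested genes reported as SoxC targets, 0 were called by edgeR in either comparison of responders, and 0 and 2 had an unadjusted p under 0.05 against non-responders and control IgG tumors. Tead2, an effector of the Hippo pathway, was at 72.7 CPM in responders and 77.9 in non-responders (log2 fold change -0.10 ± 0.07, SE; edgeR adjusted p = 0.379). Tubb3, a neuronal tubulin, was at 25.7 CPM in responders and 20.2 in control IgG tumors (0.35 ± 0.11; edgeR adjusted p = 0.0515). Ezh2, a histone methyltransferase, was at 73.2 and 73.1 CPM in responders and control IgG tumors. DESeq2 called Tubb3 and Tead2 against control IgG tumors, Tubb3 as higher and Tead2 as lower.

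In the TGF-β and epithelial-mesenchymal transition list, 1 of 18 tested genes rose and 2 fell between responders and non-responders. Snai2, a repressor of epithelial genes, fell by 0.64 ± 0.13 on the log2 scale against non-responders (edgeR adjusted p = 0.0115) and by 0.72 ± 0.12 against control IgG tumors (edgeR adjusted p = 0.00218). Its range was 6.94 to 9.71 CPM in responders, 10.9 to 15.5 in non-responders and 12.2 to 15.5 in control IgG tumors, so that responders lay apart from both groups, as they did for Sox4. Snai1 fell by 0.52 ± 0.13 against non-responders (edgeR adjusted p = 0.0221), a call lost without 24L, 30R or 33R (adjusted p = 0.0558 to 0.0595) and with 1 library per mouse (adjusted p = 0.0563). The ligand gene Tgfb3 rose by 0.34 ± 0.10 (edgeR adjusted p = 0.0393). Its value stayed at 0.25 to 0.52 in 25 alternatives, and its call was lost in 12 of them. Of the 18 genes, Snai2 alone was called between responders and control IgG tumors.

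Among Wnt and TCF genes, with which SoxC and SoxE factors are known to interact, Tcf7 rose in responders and Lef1 and Myc fell against control IgG tumors. Tcf7, which encodes a T cell and Wnt transcription factor, was at 3.51 ± 0.498 CPM in responders and 1.78 ± 0.330 in non-responders (log2 fold change 0.97 ± 0.16, SE; edgeR adjusted p = 0.00666). Its log2 fold change was 0.87 against control IgG tumors, and the median of the 6 T cell markers was 1.17 and 0.98 in these 2 comparisons, of which 5 and 6 were called higher. The part of T cells in the Tcf7 values was not tested. Lef1, its relative, was at 2.97 CPM in responders and 4.56 in control IgG tumors (-0.62 ± 0.18; edgeR adjusted p = 0.033), a call lost on leaving out any 1 of 5 tumors. Myc was at 116 ± 20.5 and 177 ± 16.8 CPM (-0.61 ± 0.12; edgeR adjusted p = 0.00563). The other 9 of 12 tested genes, Ctnnb1 and Axin2 among them, were not called in that comparison.

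Cartilage genes known as Sox9 targets were nearly absent. Of 12, Col2a1, Acan, Col9a1, Col9a2, Matn1 and Hapln1 did not pass the filter, and 5 markers of chondrocytes together came to 0.0482 to 0.79 CPM over all tumors. Col11a1, a fibrillar collagen of cartilage and of activated fibroblasts, rose in responders against control IgG tumors, from 0.343 to 2.71 CPM (log2 fold change 2.97 ± 0.68, SE; edgeR adjusted p = 0.0117). Against non-responders it was higher by 1.59 ± 0.69 (edgeR adjusted p = 0.148). The summed CPM of 9 fibroblast markers was 2860 to 4780 in responders, 2320 to 4300 in non-responders and 2420 to 3100 in control IgG tumors. Between responders and control IgG tumors edgeR called 2 of the 9 higher, Col1a1 and Col1a2, and 1 lower, Dcn. The part of fibroblasts in the Col11a1 values was not tested.

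Genes of endothelium and SoxF targets were read beside Sox18. Of 12 endothelial genes, 5 rose between responders and control IgG tumors, namely Tie1, Esam, Emcn, Eng and Ramp2, by 0.32 to 0.49 on the log2 scale. The calls of Esam, Tie1 and Ramp2 were lost on leaving out any 1 of 9, 8 and 2 tumors. Eng, a TGF-β co-receptor of vessels, rose against non-responders too, by 0.48 ± 0.13 (edgeR adjusted p = 0.0308), a call lost without 24L, 30R, 32R or 33R. None of the 12 was called between non-responders and control IgG tumors, with 1 at an unadjusted p under 0.05, and DESeq2 and limma-voom called 0. Their summed CPM was 257 to 351 in control IgG tumors, 292 to 378 in non-responders and 373 to 451 in responders. The list median of the log2 fold change was 0.34 for responders and 0.02 for non-responders against control IgG tumors, beside 0.75 and 0.74 for Sox18. None of the 12 was at 0 in any tumor, and the part of endothelial content in the Sox18 values was not tested.

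Of 8 tested SoxF targets, Vcam1 rose against both other groups, by 0.52 ± 0.12 (SE) against non-responders (edgeR adjusted p = 0.0192) and by 0.36 ± 0.11 against control IgG tumors (edgeR adjusted p = 0.0463). The first call was lost without 24L or 32R, and the second on leaving out any 1 of 10 tumors. Efnb2, an arterial ligand, fell by 0.55 ± 0.10 against control IgG tumors (edgeR adjusted p = 0.00303). Cldn5, a tight junction gene of endothelium, was at 10.0 CPM in responders and 6.76 in control IgG tumors (0.57 ± 0.18; edgeR adjusted p = 0.0532). Prox1, the lymphatic regulator downstream of Sox18, did not pass the filter and was under 1 CPM in every tumor. The summed CPM of 4 lymphatic markers was 90.6 to 113 in control IgG tumors, 95.5 to 121 in non-responders and 84.0 to 110 in responders.

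Other cell types in which Sox9 or SoxC genes are known were checked by their markers. Epidermal and hair follicle genes, of which Sox9 is a known regulator, varied widely, with a summed CPM of 8.24 to 733 in control IgG tumors, 145 to 315 in non-responders and 13.6 to 1030 in responders. The log2 fold changes of these 9 genes were -0.28 to 1.22 between responders and non-responders and -0.88 to 1.01 between responders and control IgG tumors. Of the Schwann cell markers, Mbp and Ncam1 were called higher by edgeR in both comparisons of responders, while S100b and Sox10 were under 1 CPM in every tumor. Of 9 tested colon epithelial genes, edgeR called Cdh17 higher in both comparisons of responders. Cdx2, under 1 CPM in every tumor, was called lower against control IgG tumors. The log2 fold changes of these 9 genes were -1.80 to 1.28 against non-responders and -1.97 to 1.28 against control IgG tumors. The log2 fold changes of 6 proliferation genes were -0.17 to 0.30 between responders and non-responders and -0.21 to 0.14 between responders and control IgG tumors, and their sum was 1430 to 1690, 1260 to 1530 and 1460 to 1540 CPM in control IgG tumors, non-responders and responders. The part of these cell types in the Sox4 and Sox9 values was not tested.

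Both members with several annotated transcripts were checked for a change in the mix of isoforms, a measure that had no part in the choice of genes. RSEM's mean transcript length of Sox17, over 8 transcripts, was 1275 to 1497 bases in responders and 1245 to 1449 in non-responders. The mean log2 length differed by 0.07 (two-sided exact permutation test over 5 and 4 tumors, p = 0.286, adjusted over 2 genes to 0.571). For Sox12, with 2 transcripts, the difference was 0.01 (exact permutation p = 0.571, adjusted 0.571). The other 5 members had 1 transcript each in the annotation. Sox4 is overlapped on the opposite strand by the lincRNA gene Gm26735, listed at 0 in every tumor, and Sox17 by Gm37587, at no more than 0.0397 CPM. The library protocol as described does not mark strand, so reads of such pairs cannot be told apart.

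**Figure D5:**
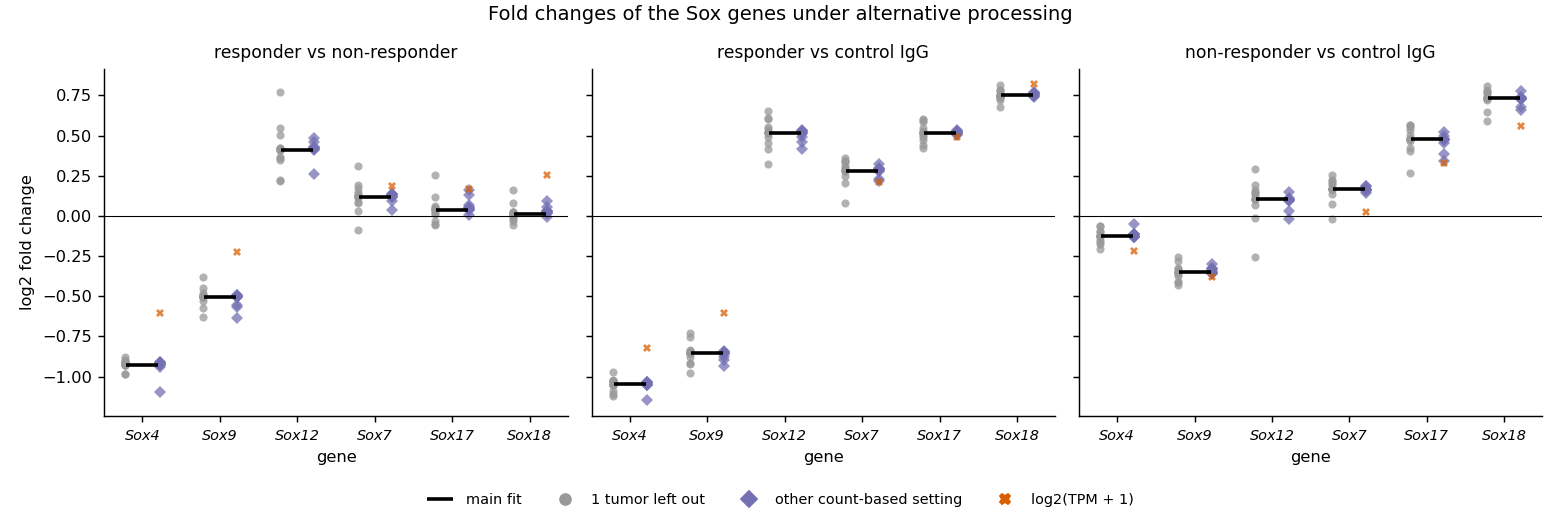
Log2 fold changes (y axis) of the 6 tested members in the 3 comparisons (panels): black bars show the reported fit, gray circles the fits without 1 tumor, purple diamonds the other count-based settings and orange crosses log2(TPM + 1). Sox4 stays between -1.10 and -0.60 against non-responders, while Sox7, Sox17 and Sox18 lie on both sides of 0 in that panel.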

How the data were processed

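Bulk RNA-seq of 14 CT26 tumors was analyzed. Groups came from the sample labels. The submitters' processing notes name STAR, RSEM and the mm10 assembly, with no versions. The expected counts deposited by the authors are RSEM's estimated fragments per gene and were not normalized. The TPM values deposited by the authors set these estimates against effective gene length, with a fixed total per tumor. FPKM was not used. Of 53801 genes, 53620 were matched to a symbol of GENCODE M21. No pair of tumors within a group was as alike as sampling noise would give (lowest chi-square per gene 21.4), and all were kept.

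Rounded expected counts entered edgeR 4.0.16 under R 4.3.3, with TMM factors and filterByExpr. The quasi-likelihood test was adjusted by the method of Benjamini and Hochberg over 16287 genes. All 14 tumors entered 1 fit without covariates. Nothing in the labels says more of how the tumors were batched. The procedure was tested on simulated counts. The members, their lists, all tests and the naming rule were chosen with earlier results of these data known. Named were the members, the genes of the lists, and for each tested member the 5 genes with the highest r within groups (for Sox4 also the 5 lowest, and the 5 highest over all tumors) among genes with a mean log2 CPM of at least 1. A gene of the Sox7 list is not reported here. Log2 CPM used a prior count of 2. Mean isoform lengths were compared by exact permutation. Alternatives were DESeq2 1.42.0, limma-voom (limma 3.58.1), the same with a random effect for the mouse, 1 library per mouse, DESeq2 size factors, upper quartile normalization, no filter, at least 1 CPM in 4 tumors, a length offset (loess, span 0.5), the compared groups alone, limma on log2(TPM + 1) for genes with at least 1 TPM in 4 tumors, and the omission of each tumor. Promoter and protein sequences were not used here.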

Additional observations from a re-analysis of the deposited data

Results flagged for a closer look

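Among 27 groups of tumors for 9 Sox genes, 3 held a tumor whose gap to its nearest neighbor was large beside the range of its group, by Dixon's 95% limit, and chance gives about 1 in 20. Sox11 was at 0.393 CPM in responder 24L, from 17 counts, and at 0 to 0.109 in the other responders. Sox7 was at 4.77 CPM in responder 30R and at 2.42 to 3.05 in the other responders. Without 30R the log2 fold change of Sox7 between responders and control IgG tumors was 0.08 and not 0.28, and between responders and non-responders it was -0.09 and not 0.11. Sox18 was at 14.3 CPM in responder 30L and at 17.9 to 19.1 in the other responders. It was lower in 30L than in every non-responder, and above every control IgG tumor.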

How the results depend on the processing

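Sox4 was called in both comparisons of responders, and Sox9 and Sox18 between responders and control IgG tumors, in all 25 alternatives. Between responders and non-responders 1 member was called, against 2 with DESeq2, 2 with a random effect for the mouse, and 2 with the length offset, Sox9 being added each time, and 1 to 2 when 1 tumor was left out. Sox18 was the 1 member called by DESeq2 between non-responders and control IgG tumors, against 0 in the other alternatives. Between responders and control IgG tumors the count of members was 3, and 3 to 4 in every alternative.

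The listed genes called between responders and non-responders were 7, against 12 with the mouse effect, 4 in the fit of the compared groups alone, and 14 on the TPM scale, of which 14 were higher. Leaving out 1 tumor gave 3 to 11 (3 without 24L, 4 without 32R, 11 without 33L). Between responders and control IgG tumors they were 13, against 20 with DESeq2, 20 with the mouse effect and 20 with the compared groups alone, and 8 to 23 with 1 tumor left out (8 without 24L or 30R, 23 without 33R). The TPM scale moved the median log2 fold change of all genes to 0.20, 0.10 and -0.10 in the 3 comparisons, and its calls between responders and non-responders were 1930 higher and 213 lower, against 827 and 785. There Sox4 was at -0.60 and -0.82 against non-responders and control IgG tumors, and Snai1 and Snai2 were no longer called against non-responders, nor were Efnb2, Lef1, Myc, Tie1 and Vcam1 against control IgG tumors. Over all genes the calls between responders and non-responders were 2634 with DESeq2, 2973 with the mouse effect, 1512 with the length offset and 689 with the compared groups alone, against 1612.

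Calls of single listed genes were lost in 1 to 13 of 25 alternatives for 12 of the 20 calls. With 1 library per mouse Snai1 and Tgfb3 were not called against non-responders (adjusted p = 0.0563 and 0.0596), and with the compared groups alone Eng, Snai1 and Tgfb3 were not (0.0785, 0.0757 and 0.0872). Against non-responders, calls were lost without 24L, 30R, 32R or 33R for Eng (adjusted p = 0.0725 to 0.0779), 24L or 32R for Vcam1 (0.0539 to 0.0571), 24L, 30R or 33R for Snai1 (0.0558 to 0.0595), and 14L, 20R, 24L, 29L, 30L, 32R, 33R or 35L for Tgfb3 (0.0507 to 0.0937). Against control IgG tumors, they were lost without 24L or 30R for Ramp2 (adjusted p up to 0.0549), 14L, 20R, 24L, 30R or 35L for Lef1 (0.0539 to 0.0877), and 14L, 14R, 17R, 20R, 24L, 30L, 30R or 35L for Tie1 (0.0518 to 0.0931). They were also lost without 14L, 14R, 16R, 17R, 20R, 24L, 26R, 30R or 35L for Esam (0.0579 to 0.106), and 14L, 14R, 16R, 20R, 24L, 30L, 30R, 32R, 33L or 35L for Vcam1 (0.0511 to 0.125).

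The log2 length difference of Sox12 isoforms was -0.00164 (without non-responder 33R) to 0.0131 with 1 tumor left out, and that of Sox17 0.0383 to 0.119. Of the 5 genes most like Sox4, Spearman's rho kept 2, Itga10 and Sntb2. No paired analysis was possible because no tumors of different groups shared a replicate number. Depth limits Sox11 and Sox12. The causes of these changes were not tested.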
